A study of Mus musculus with 2 samples.

Results

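The genes described here were 10 members of the Notch pathway, namely the receptors Notch1, Notch2 and Notch3, the ligands Dll1, Dll4 and Jag1, and the targets Hes1, Hey1, Heyl and Nrarp. They were a named list, and all 10 were among the 27998 genes of the matrices. The measurement was droplet single-cell RNA sequencing of the mouse tibialis anterior, the shin muscle, injured with notexin. This venom toxin kills muscle fibres, which the surviving muscle stem cells then rebuild. There were 2 libraries, 1 from day 2 and 1 from day 7 after injury, both of C57Bl/6 genotype. The sample labels give both mice as 7-month-old females, whereas the cell annotation gives C57BL/6J males of 4 months at day 2 and 7 months at day 7, with 1 mouse per library, so that day, mouse and library cannot be told apart. Counts were summed over the cells of each annotated label for each day and are given as CPM, the usual scaling of a gene's counts to the total counts of its label. The labels described were the 4 endothelial labels (Artery, Capillary, Stem and Vein), Smooth Muscle as the mural label, MuSCs (muscle stem cells) and Myoblasts/Progenitors. With 1 library per day no test between days is possible, and the 95% intervals in parentheses reflect counting error alone, not variation between mice.

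Notch signalling passes between cells that touch. A ligand of the Delta-like or Jagged kind on one cell binds a receptor on its neighbour, the receptor is cut by ADAM10 and then by gamma-secretase, and the freed intracellular part joins RBPJ in the nucleus to switch on targets such as the Hes and Hey repressors and the feedback inhibitor Nrarp. In blood vessels Dll4 and Notch1 restrain sprouting and support arterial identity, Notch3 is the receptor of pericytes and smooth muscle, and in muscle Notch signalling keeps stem cells from differentiating, with Hey1 and Heyl among its targets there.

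In the gene annotation (GENCODE vM21, GRCm38, the mm10 build of the files) Notch1 (ENSMUSG00000026923) lies on the minus strand at chr2:26457903-26516663, Dll4 (ENSMUSG00000027314) on the plus strand at chr2:119325784-119335962, Nrarp (ENSMUSG00000078202) on the plus strand at chr2:25180758-25183339 and Notch3 (ENSMUSG00000038146) on the minus strand at chr17:32120820-32166852. The 120 bases just before the RefSeq start of these 4 genes (GRCm38.p6) are printed because the contrasts described below rest on them, Notch1, Dll4 and Nrarp in the endothelial labels and Notch3 in mural and myogenic cells. Each is read 5′ to 3′ on its own gene's strand, and capitals mark GGGCGG or its reverse complement CCGCCC, the GC box.

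Nrarp: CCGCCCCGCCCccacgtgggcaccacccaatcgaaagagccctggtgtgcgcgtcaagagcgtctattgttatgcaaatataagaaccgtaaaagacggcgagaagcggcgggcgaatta
Notch1: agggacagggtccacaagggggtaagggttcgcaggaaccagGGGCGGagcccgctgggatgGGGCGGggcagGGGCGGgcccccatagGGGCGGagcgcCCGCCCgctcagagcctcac
Dll4: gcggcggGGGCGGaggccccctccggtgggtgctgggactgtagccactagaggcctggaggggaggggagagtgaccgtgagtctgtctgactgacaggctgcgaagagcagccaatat
Notch3: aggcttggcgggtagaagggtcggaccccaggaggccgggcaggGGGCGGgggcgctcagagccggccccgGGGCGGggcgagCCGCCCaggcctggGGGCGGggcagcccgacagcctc

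These stretches are chr2:25180638-25180757, chr2:26503823-26503942, chr2:119325664-119325783 and chr17:32166891-32167010. The Notch1 stretch lies inside the gene span given above, since the RefSeq start is downstream of the GENCODE one. RefSeq windows of 300 bases (250 before and 50 after a start) were at hand for 7 of the 10 genes, as 8 windows. The GC box was in 5 of these 8 windows and in 35.7% of all 32851 windows. The core letters bound by RBPJ, TGGGAA or TTCCCA on the other strand, were in 0 of the 8 windows and in 25.6% of all windows. This says only that those letters are not in these windows. Hes1, Hey1 and Heyl have no entry in the window table.

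The libraries held 3208 kept cells at day 2 and 3221 at day 7, with medians of 9010 and 6557 counts per cell, and 1 cell barcode was shared between them. The endothelial labels carried general endothelial markers. Over the 4 labels, 334 of 336 cells at day 2 and 332 of 333 at day 7 had at least 3 counts of the 5 endothelial markers Pecam1, Cdh5, Kdr, Cldn5 and Tie1, and Gja5, an arterial connexin, was at 110 and 239.6 CPM in Artery and at 0 CPM in Vein. The 5 capillary markers Rgcc, Cd36, Gpihbp1, Car4 and Lpl did not set Capillary apart, summing to 1607 CPM there at day 2 against 1815 in Stem and 1705 in Artery, and to 5737 and 5730 CPM in Capillary and Stem at day 7. Mural markers also reached 3 counts in 107 of the 336 cells at day 2 (57 of 159 in Capillary, 35 of 150 in Stem, 9 of 15 in Artery and 6 of 12 in Vein) and in 69 of 333 at day 7. The Artery and Vein labels were small, with 15 and 12 cells at day 2 and 26 and 21 at day 7. Of the 137 day 7 MuSCs, 130 had at least 3 counts of 6 muscle stem markers (Pax7, Myf5, Cdh15, Chodl, Calcr, Myod1), but only 4 of the 21 day 2 MuSCs did, and Myoblasts/Progenitors held 1 cell at day 2 against 175 at day 7, 123 of which also had at least 3 of these counts. The Smooth Muscle label went against its name. At day 2, 284 of its 304 barcodes had at least 3 counts of the endothelial markers, as did 196 of 232 at day 7, and it is therefore also described by its barcodes' markers below.

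**Figure D1:**
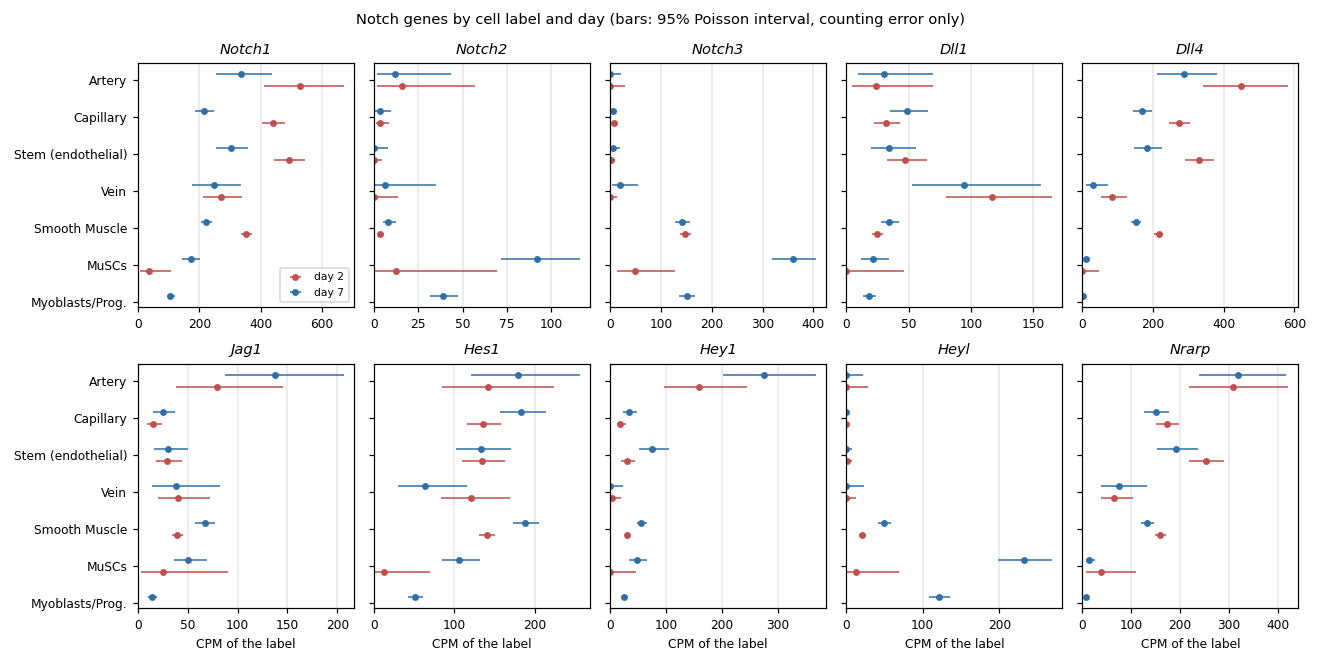
CPM (x axes, linear, each panel with its own range) of the 10 Notch genes in the 7 labels (y axis) at day 2 (red) and day 7 (blue), with 95% Poisson intervals. Hey1 and Jag1 were highest in Artery at day 7, Heyl had 0 counts in the 4 endothelial labels at day 7, and Notch3 was highest in Smooth Muscle at day 2 and in MuSCs at day 7. Myoblasts/Progenitors at day 2 (1 cell) are left out.

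Notch1, the receptor most tied to endothelial cells and stem cell maintenance, was above its ambient level in the vessel labels at both days and in the myogenic labels at day 7. At day 2 it stood at 529 CPM in Artery, 492 CPM in Stem, 441 CPM in Capillary, 354 CPM in Smooth Muscle and 270.3 CPM in Vein. At day 7 the same labels stood at 335, 303, 215, 223 and 246 CPM, and MuSCs and Myoblasts/Progenitors at 172 and 106 CPM. The interval of the day 7 to day 2 ratio lay below 1 in 4 of these 5 labels and included 1 in Vein (0.912, 0.602 to 1.36). In the day 2 order, Artery, Stem and Capillary did not differ between neighbours beyond their counting intervals, and in the day 7 order no neighbours differed until MuSCs against Myoblasts/Progenitors. Some labels further apart in the order did differ. At day 2 Artery exceeded Vein 1.96-fold (1.38 to 2.76). At day 7 Artery exceeded Capillary 1.56-fold (1.14 to 2.11) and Stem exceeded Capillary 1.41-fold (1.13 to 1.76). The ambient level, measured in barcodes of 1 to 100 counts, was 54.0 CPM at day 2 and 56.8 CPM at day 7, and the 3 counts of day 2 MuSCs (37.5 CPM, 7.73 to 109.5) were not above it.

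Notch2 and Notch3 lay on other cells. Notch2, which shares with Notch1 a part in stem cell quiescence, had 6 counts over the 4 endothelial labels at each day (2.47 and 3.58 CPM), below its ambient level of 31.1 and 34.2 CPM. At day 7 it stood at 91.9 CPM (69 counts) in MuSCs, 38.7 CPM in Myoblasts/Progenitors and 8.12 CPM in Smooth Muscle. The MuSC level was 25.7 times that of the pooled endothelial labels (11.2 to 72.4). It was not particular to MuSCs, since Cx3cr1_lo M2 macrophages stood at 91.7 CPM (68.7 to 120) at day 7.

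Notch3 had 12 counts at day 2 and 11 at day 7 over the 4 endothelial labels, or 4.95 and 6.56 CPM, again no higher than the ambient 8.51 and 27.0 CPM. It was at 148 CPM in Smooth Muscle at day 2 and 142 CPM at day 7. At day 7 it was at 359 CPM in MuSCs and 150.4 CPM in Myoblasts/Progenitors. The MuSC level was above that of every other described label taken whole at day 7, and Myoblasts/Progenitors and Smooth Muscle did not differ beyond their counting intervals.

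The ligands followed the vessel types. Dll4, the ligand of tip and arterial endothelial cells, was at 449.8 CPM at day 2 and 287 CPM at day 7 in Artery, and at 84.0 and 31.6 CPM in Vein. Artery exceeded Vein 5.35-fold (3.25 to 9.11) at day 2 and 9.10-fold (3.64 to 29.3) at day 7. Between these ends lay Stem with 329.7 and 183 CPM, Capillary with 274 and 169 CPM, and Smooth Muscle with 216 and 152 CPM. In the myogenic labels at day 7 Dll4 had 8 and 5 counts, or 10.6 and 2.02 CPM against an ambient level of 22.1 CPM. A single barcode carried 12 of the 23 Vein counts at day 2.

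Dll1, a ligand that presents Delta to Notch in several tissues, had the opposite order. It was at 117 CPM in Vein and 23.7 CPM in Artery at day 2, a 4.94-fold difference (1.54 to 25.2), and at 94.8 and 29.9 CPM at day 7, a 3.17-fold difference (1.09 to 11.1). The Artery values rested on 3 counts at day 2, all in 1 barcode, and 5 at day 7, 3 of them in 1 barcode. A single barcode also held 10 of the 32 Vein counts at day 2. Vein also exceeded its neighbour in the order at both days, and the other vessel labels, at 23.7 to 46.9 CPM at day 2 and 29.9 to 48.4 CPM at day 7, did not differ between neighbours. The MuSCs and Myoblasts/Progenitors of day 7 had 21.3 and 18.1 CPM, with an ambient level of 6.85 CPM.

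Jag1, the Jagged ligand of arteries and mural cells, was at 78.9 CPM at day 2 and 138 CPM at day 7 in Artery and at 15.4 and 24.8 CPM in Capillary. The Artery level was 5.13-fold (2.13 to 11.6) and 5.56-fold (2.96 to 10.5) that of Capillary. Vein had 40.2 and 37.9 CPM. Artery did not differ from Vein beyond the interval at day 2 (1.96, 0.748 to 5.09) and exceeded it 3.63-fold (1.44 to 10.9) at day 7, and Vein was at 2.61 times Capillary (1.12 to 5.78) at day 2, where 1 barcode held 7 of the 11 Vein counts. The day 2 Artery value rested on 10 counts, 5 of them in 1 barcode. Smooth Muscle had 39.0 and 67.2 CPM and the day 7 MuSCs had 50.6 CPM, with ambient levels of 9.50 and 14.3 CPM.

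Among the targets, Hey1, a transcriptional repressor of arterial endothelium, was uneven among the endothelial labels. It was at 158 CPM (20 counts) in Artery at day 2 and 275 CPM (46 counts) at day 7, at 18.6 and 33.8 CPM in Capillary, and at 1 and 0 counts in Vein. Artery exceeded Capillary 8.48-fold (4.42 to 16.2) at day 2 and 8.15-fold (5.04 to 13.4) at day 7. Against the day 7 Vein label, set to a floor of 3 counts over that label, Artery was at least 14.5-fold higher. Stem reached 30.4 and 75.3 CPM, and at day 7 it exceeded Capillary 2.23-fold (1.33 to 3.75).

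Nrarp, which blunts Notch signalling in a feedback loop, was at 308 and 317 CPM in Artery, 252 and 191 CPM in Stem, 172 and 149.9 CPM in Capillary, and 65.7 and 75.8 CPM in Vein. Artery exceeded Vein 4.68-fold (2.62 to 8.69) at day 2 and 4.19-fold (2.21 to 8.61) at day 7. In MuSCs and Myoblasts/Progenitors of day 7 it had 14.6 and 6.86 CPM, at or below its ambient level of 23.6 CPM.

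Hes1, a repressor with inputs beyond Notch, did not differ between neighbouring vessel labels at day 2 but was lower in Vein at day 7. At day 2 the 4 endothelial labels and Smooth Muscle lay between 120.5 and 142 CPM, with no difference between neighbours in that order. At day 7 Smooth Muscle, Capillary, Artery and Stem lay at 189, 184, 179.7 and 133 CPM, MuSCs at 106 CPM, Vein at 63.2 CPM and Myoblasts/Progenitors at 50.8 CPM. At day 7 Artery exceeded Vein 2.84-fold (1.35 to 6.52), Capillary exceeded Vein 2.91-fold (1.54 to 6.17), and Stem was at 0.726 (0.533 to 0.978) of Capillary. The ambient level was 21.0 CPM at day 2 and 82.4 CPM at day 7, and the latter was 50.6 CPM in barcodes of 1 to 10 counts. The Vein interval (30.3 to 116) holds both day 7 ambient values, and Myoblasts/Progenitors lay near the lower one.

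Heyl, a repressor of mural and muscle stem cells, was nearly missing from endothelium. Over the 4 endothelial labels it had 1 count at day 2 and 0 at day 7. It was at 21.1 and 49.5 CPM in Smooth Muscle, and at day 7 at 232 CPM in MuSCs and 121 CPM in Myoblasts/Progenitors. Against the floor of 3 counts over the pooled endothelial labels, the MuSC level was at least 129.5-fold higher. The ambient level was 0.982 and 17.9 CPM.

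The comparison of days asked which members differed between early and late regeneration in the labels with at least 50 cells at both days, namely Capillary (159 and 149 cells), Stem (150 and 137), the 4 endothelial labels pooled (336 and 333) and Smooth Muscle. Notch1 and Dll4 were lower and Hey1 was higher at day 7 in all 4, each with an interval that left out 1, while few members passed the mark used, a ratio of at least 2 in either direction with an interval that leaves out 1 and at least 20 counts over both days.

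Notch1 was at 443 CPM at day 2 and 254 CPM at day 7 in the pooled endothelial labels, a ratio of 0.575 (0.513 to 0.643). In Capillary its ratio was 0.488 (0.412 to 0.577) and in Stem 0.616 (0.504 to 0.749). Dll4 stood at 280.0 and 172 CPM in the pooled labels, a ratio of 0.613 (0.532 to 0.705). Its ratio was 0.616 in Capillary and 0.554 in Stem, and in both the interval left out 1. Other markers moved further in the same cells. The sprouting markers Apln, Esm1, Angpt2 and Pgf summed to 2285 CPM at day 2 and 103 CPM at day 7 in the pooled labels, and to 2948 and 110 CPM in Capillary, with all 4 detected in both. The capillary markers summed to 1588 and 5252 CPM in the pooled labels. The part of these shifts in the day ratios of the members was not tested. Within the small Artery label the ratios were 0.634 (0.437 to 0.918) for Notch1 and 0.639 (0.426 to 0.955) for Dll4.

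Hey1 went the other way. It was at 28.0 CPM (68 counts) at day 2 and 66.2 CPM (111 counts) at day 7 in the pooled endothelial labels, a ratio of 2.36 (1.73 to 3.24), with ambient levels of 2.62 and 7.85 CPM. In Stem it was at 2.47 (1.43 to 4.34) and in Capillary at 1.82 (1.02 to 3.28) times the day 2 level. After thinning each cell to 2000 counts, which takes out depth, 3.92% of 332 endothelial cells had a Hey1 count at day 2 (2.10 to 6.60) and 12.7% of 323 did at day 7 (9.27 to 16.8). Without thinning the shares were 13.4% and 20.7%, and among M1 macrophages, which should lack the gene, the thinned shares were 0 of 467 cells (up to 0.642%, by the floor of 3 counts) and 0.439% of 228 cells. Unthinned, these macrophages had 1 Hey1 count at day 2 and 9 at day 7, a ratio of 18.2 (2.53 to 800) in the same direction. Their levels, 0.148 and 2.69 CPM, were below the ambient ones. The Artery label made up 15 of 336 endothelial cells at day 2 and 26 of 333 at day 7, and its part in the pooled ratio was not tested. Within Artery the ratio was 1.75 (1.01 to 3.12).

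Nrarp had a ratio of 0.885 (0.761 to 1.03) in the pooled endothelial labels and Hes1 one of 1.18 (0.998 to 1.39), so neither differed beyond the counting interval there. Jag1 was at 1.49 (1.04 to 2.14) and Dll1 at 1.03 (0.761 to 1.39) times the day 2 level. Within single labels, Hes1 in Capillary was at 1.35 (1.08 to 1.69) and Nrarp in Stem at 0.758 (0.584 to 0.978) times the day 2 level, while Hes1 in Stem (0.992, 0.713 to 1.37) and Nrarp in Capillary (0.870, 0.695 to 1.09) did not differ beyond their intervals.

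In Capillary 7 of the 10 members had enough counts, of which 0 were past the mark upward and 1 downward (Notch1), against 12.3% and 9.99% of all 8261 genes tested. As a mean over cells, or without barcodes that had at least 3 counts of both marker sets, Notch1 was not past the mark (log2 ratios of -0.98 and -0.99) and Hey1 was (1.12 and 1.20). In Stem 7 members had enough counts, of which 1 was past it upward (Hey1) and 0 downward, against 12.4% and 11.4% of 6956 genes. In the pooled endothelial labels 1 of 8 was past it upward (Hey1) and 0 downward, against 13.9% and 9.05% of 9616 genes. In Smooth Muscle 2 of 10 were past it upward (Notch2 and Heyl) and 0 downward, against 13.5% and 7.35% of 11039 genes. The Notch2 levels there, 3.52 and 8.12 CPM, were below its ambient 31.1 and 34.2 CPM. Heyl was not past the mark as a mean over cells (log2 ratio 0.95) or in mural-only barcodes (0.41). With 7 to 10 members per group, these counts lie near the background shares. The median log2 ratio of the members with enough counts was 0.43, -0.40, 0.14 and 0.46 in these 4 groups, beside 0.012, -0.0040, 0.060 and 0.10 over all genes tested. The 4 groups are not independent, since the pooled labels hold Capillary and Stem.

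**Figure D2:**
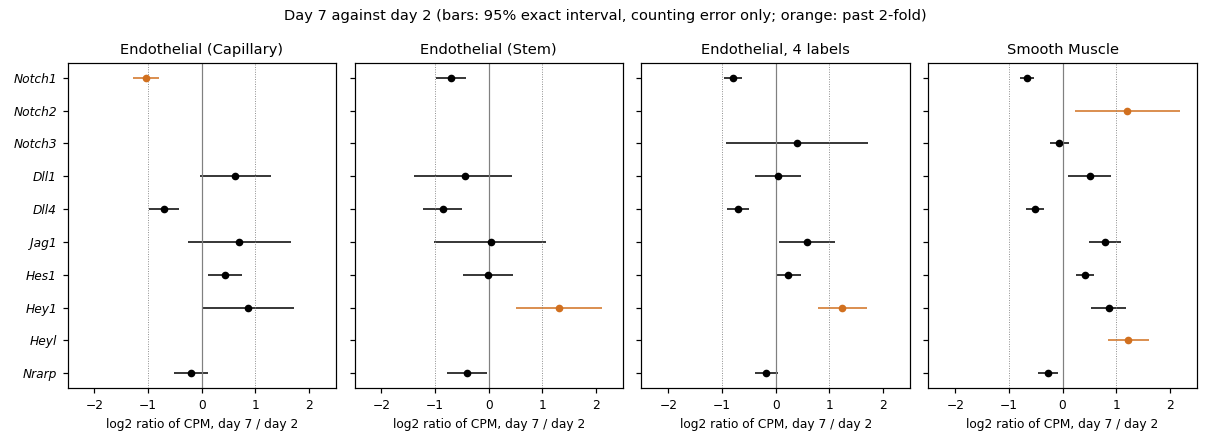
Log2 ratio of CPM at day 7 to day 2 (x axis) for the members with at least 20 counts (y axis) in 4 groups of cells, with 95% exact intervals and dotted lines at 2-fold. Orange points are past 2-fold, namely Notch1 in Capillary, Hey1 in Stem and in the pooled endothelial labels, and Notch2 and Heyl in Smooth Muscle.

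The day 2 MuSC label held fewer than 50 cells, and 4 of its 21 had at least 3 stem marker counts. Its 21 cells held 80061 counts in all, in which each member had between 0 and 4 counts, with 4 for Notch3, 3 each for Notch1 and Nrarp and 0 for Dll1, Dll4 and Hey1. A count of 0 there allows up to 37.5 CPM. The day 7 label held 270 counts of Notch3, 174 of Heyl and 129 of Notch1. The day 7 to day 2 ratio was 7.19 (2.78 to 26.6) for Notch3, 4.58 (1.53 to 22.5) for Notch1, 7.35 (1.28 to 295) for Notch2, 8.53 (1.49 to 341) for Hes1 and 18.5 (3.28 to 737) for Heyl. Notch2, Hes1 and Heyl had 1 count each at day 2. Nrarp went the other way, at 0.391 (0.103 to 2.18), and Jag1 was at 2.02 (0.523 to 17.3), both with intervals that include 1. The stem marker share, 4 of 21 against 130 of 137 cells, also differed between the days, and its part in these ratios was not tested.

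The Smooth Muscle label was then described by the markers of its barcodes, a split added after the data were seen. Barcodes with at least 3 endothelial and fewer than 3 mural marker counts numbered 90 at day 2 and 74 at day 7, those with at least 3 of both numbered 194 and 122, and those with at least 3 mural and fewer than 3 endothelial counts numbered 20 and 36. The mural list held Acta2, Myh11, Tagln, Cnn1 and Mylk of smooth muscle and Rgs5, Pdgfrb, Abcc9, Kcnj8 and Cspg4 of pericytes. Median counts were 10926 and 8245.5 in the endothelial-only barcodes, 16827 and 12314 in those with both marker sets, and 4734.5 and 2744 in the mural-only ones, and deeper barcodes reach 3 counts more easily. The authors removed doublets before annotation. Whether barcodes with both marker sets hold more than 1 cell was not tested.

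**Figure D3:**
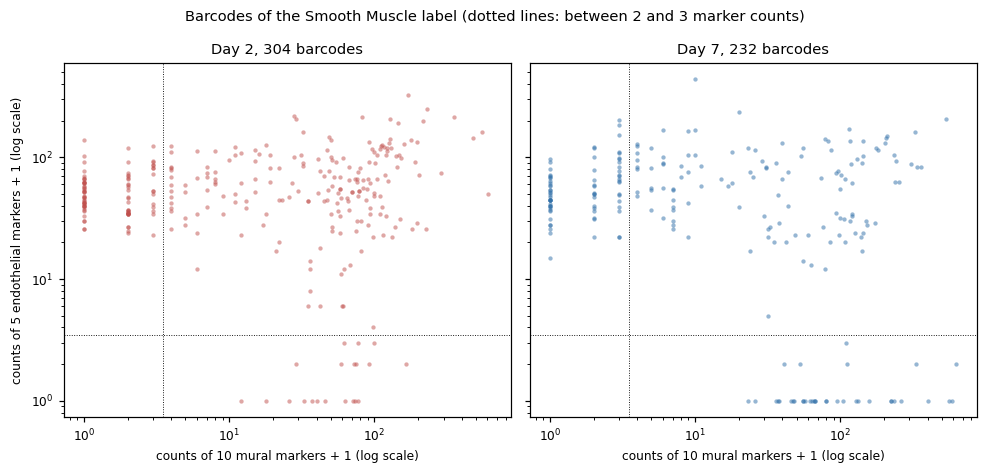
Counts of 10 mural markers (x axis, plus 1, log scale) and of 5 endothelial markers (y axis, plus 1, log scale) in each barcode of the Smooth Muscle label at day 2 (304 barcodes) and day 7 (232). Dotted lines separate 2 from 3 counts. Most barcodes lie above the horizontal line, in the endothelial-only or the shared field, and the 20 and 36 mural-only barcodes form the group at the lower right.

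The members divided along this line. Notch3 had 0 counts at day 2 and 1 at day 7 in the endothelial-only barcodes, and stood at 537 CPM (405 to 699.6) and 799 CPM (664 to 953) in the mural-only ones. At day 2 the mural-only level was at least 188-fold higher than the floor of 3 counts over the endothelial-only barcodes. The day 7 mural-only level was 2.22-fold (1.78 to 2.76) that of MuSCs. Barcodes with both marker sets lay between, at 177 and 143 CPM, and carried 92.7% and 67.8% of the label's Notch3 counts. Heyl was split in the same way, with 0 and 1 counts against 147 and 195 CPM.

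Dll4 was the mirror image. It stood at 269.5 and 179.9 CPM in the endothelial-only barcodes, 208 and 153 CPM in those with both marker sets, and had 0 counts in the mural-only barcodes at both days. The mural-only level was at least 9.19-fold lower at day 2 and 9.24-fold lower at day 7, with the floor set at 3 counts over the mural-only barcodes. Hey1 and Dll1 also had 0 counts in the mural-only barcodes at both days, where the floor is 29.3 and 19.5 CPM. At day 2, for Dll1 (33.3 CPM in the endothelial-only barcodes) and for Hey1 (31.4 CPM), that floor is too near to show a difference. For Dll1 at day 7 (31.6 CPM) the mural-only level was at least 1.62-fold lower, with a ratio interval of up to 0.822. For Hey1 at day 7 (52.2 CPM) the mural-only level was at least 2.68-fold lower.

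Jag1 was higher in the mural-only barcodes, at 117 and 247 CPM against 13.3 and 23.4 CPM in the endothelial-only ones, which is 8.79-fold (3.72 to 20.5) and 10.6-fold (5.82 to 19.97). Notch1 was lower there, at 176 and 52.0 CPM against 413 and 229 CPM, and its day 7 level was no higher than the ambient 56.8 CPM. Hes1 did not differ between these sets beyond its intervals, at ratios of 1.399 (0.804 to 2.30) and 1.19 (0.815 to 1.70).

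The endothelial-only barcodes of the Smooth Muscle label were close to the endothelial labels in Notch1 and Dll4 but not in every member. Their ratio to the pooled endothelial labels was 0.933 (0.833 to 1.04) for Notch1 and 0.963 (0.835 to 1.11) for Dll4 at day 2, and 0.901 (0.749 to 1.08) and 1.05 (0.846 to 1.29) at day 7. Nrarp at day 2 was lower, at 0.640 (0.523 to 0.779), as was Jag1 at day 2, at 0.513 (0.266 to 0.926). Hes1 at day 7 was higher, at 1.35 (1.10 to 1.65).

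The split also bears on the day ratios of the label. Within the mural-only barcodes, which number fewer than 50 at each day, Notch3 was at 1.49 (1.07 to 2.08) and Jag1 at 2.10 (1.08 to 4.42) times the day 2 level, Notch1 at 0.295 (0.111 to 0.714) and Heyl at 1.33 (0.693 to 2.66). The 5 smooth muscle markers of these barcodes summed to 1886 CPM at day 2 and 24248 CPM at day 7, while the 5 pericyte markers summed to 9909 and 10260 CPM. Within the barcodes with both marker sets Notch3 was at 0.805 (0.695 to 0.929) and Heyl at 2.40 (1.79 to 3.21). Nrarp was at 0.730 (0.626 to 0.849) in these and at 1.32 (1.02 to 1.71) in the endothelial-only barcodes. In the barcodes with both sets the muscle stem markers summed to 0.253 CPM at day 2 and 87.0 CPM at day 7, with at least 3 counts in 0 of 194 and 12 of 122 barcodes. The part of these marker shifts in the ratios was not tested. The whole label had shown 0.959 (0.846 to 1.09) for Notch3, beside differences in opposite directions in these sets. Mural-only barcodes gave 2.00% of the label's counts at day 2 and 5.68% at day 7. The 10 Notch2 counts of the mural-only barcodes made up 45.5% of the label's 22 at day 7, and the endothelial-only barcodes held 5 and 0, beside a ratio of 2.30 (1.18 to 4.56) in the whole label.

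**Figure D4:**
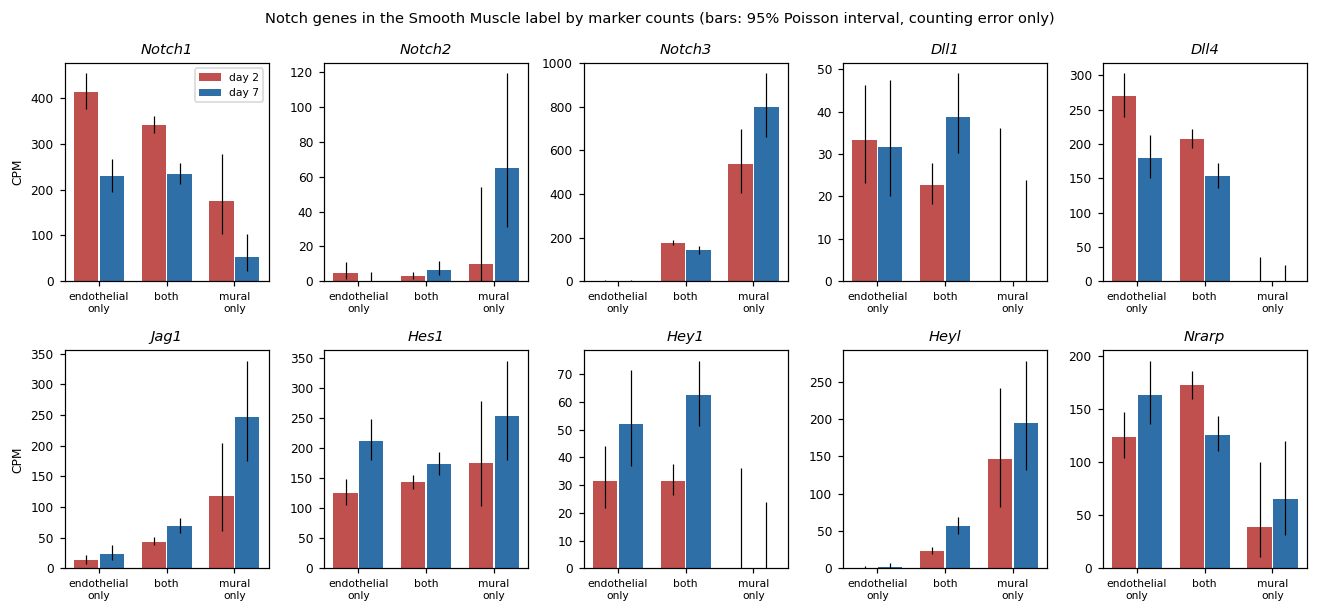
CPM (y axes, linear, from 0) of the 10 members in the Smooth Muscle label at day 2 (red) and day 7 (blue), by whether a barcode had endothelial markers only, both sets or mural markers only, with 95% Poisson intervals. Notch3, Heyl and Jag1 rise from left to right, Dll4 falls, Notch1 is lowest in mural-only barcodes, and Dll1, Dll4 and Hey1 have 0 counts in mural-only barcodes.

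At day 7 MuSCs (751224 counts) could be set against Myoblasts/Progenitors (2479479 counts), the cells further along myogenesis. The labels come from clustering, so these values describe the labels. All 3 receptors had higher CPM in MuSCs. Notch3 was at 359 against 150.4 CPM, a ratio of 2.39 (2.04 to 2.80), Notch2 at 91.9 against 38.7 CPM, a ratio of 2.37 (1.72 to 3.27), and Notch1 at 172 against 106 CPM, a ratio of 1.62 (1.30 to 2.01). The lower Notch2 value (31.4 to 47.3) was not above its ambient level, 34.2 CPM, or 56.0 CPM in barcodes of 1 to 10 counts.

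Of the targets, Hes1 had a ratio of 2.10 (1.56 to 2.80), Heyl 1.91 (1.57 to 2.31), Hey1 1.89 (1.22 to 2.88) and Nrarp 2.14 (0.904 to 4.83). Jag1 was at 50.6 against 14.1 CPM, a ratio of 3.58 (2.20 to 5.84), with the lower value at the ambient level of 14.3 CPM. Dll1 was at 21.3 against 18.1 CPM, a ratio of 1.17 (0.619 to 2.12), which does not differ beyond the interval. Past the mark upward were 4 of the 9 members with enough counts (Notch2, Notch3, Jag1 and Hes1) against 16.2% of 9284 genes, and downward 0 against 8.58%.

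These ratios share a shift of all genes. The median log2 ratio over all genes tested was 0.42, the median-of-ratios scaling put the shift at 0.52, and Acta1, the skeletal muscle actin, took 31770 CPM of Myoblasts/Progenitors and 258 CPM of MuSCs. Relative to that shift the log2 ratios were 1.32 (0.62 to 2.02) for Jag1, 0.73 (0.50 to 0.96) for Notch3, 0.72 (0.25 to 1.18) for Notch2, 0.54 (0.12 to 0.96) for Hes1, 0.41 (0.13 to 0.68) for Heyl, 0.39 (-0.24 to 1.004) for Hey1, 0.17 (-0.15 to 0.48) for Notch1 and -0.29 (-1.22 to 0.56) for Dll1, whose direction thus turned, and only Jag1 of these stayed past the mark, against 4.04% of all genes upward and 15.5% downward.

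Shares of cells at equal depth were higher in MuSCs, with separate intervals for 3 members. With cells thinned to 2000 counts, Notch3 had a count in 47.7% of 132 MuSCs (39.0 to 56.6) and 24.0% of 175 Myoblasts/Progenitors (17.9 to 31.0). Heyl was in 37.9% (29.6 to 46.7) and 20.6% (14.8 to 27.3) and Notch2 in 19.7% (13.3 to 27.5) and 6.86% (3.59 to 11.7). The intervals overlapped for Hes1, in 21 (10.1 to 23.3%) and 14 cells (4.44 to 13.1%), for Notch1, in 25.8% (18.5 to 34.1) and 20.6% (14.8 to 27.3), and for Jag1, in 13 (5.35 to 16.3%) and 7 cells (1.62 to 8.07%). Unthinned, Notch3 was in 81.8% and 49.1% of cells, at medians of 4787 and 10076 counts. Among M1 macrophages of day 7 the thinned share with a Notch3 count was 0.439%. Endothelial markers reached 3 counts in 13 of the 137 MuSCs and 4 of the 175 Myoblasts/Progenitors, and the mural markers, some of which myogenic cells also express, did so in 33 and 83.

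**Figure D5:**
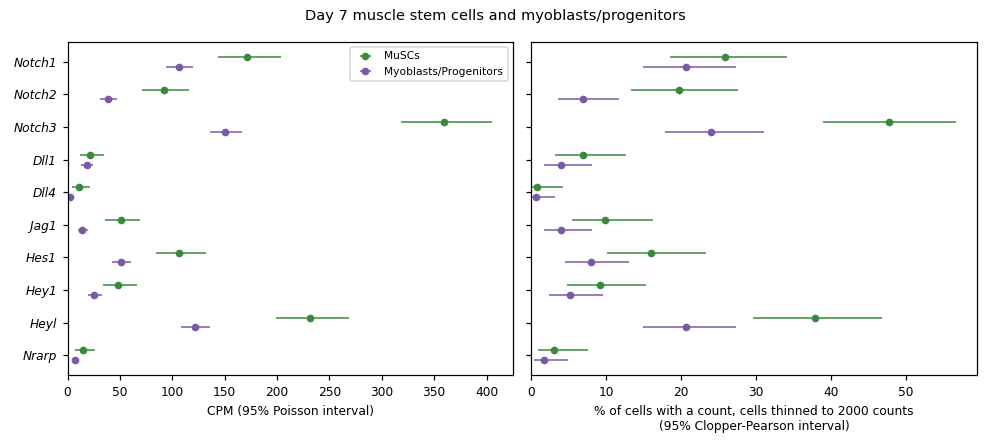
Left, CPM of the 10 members in day 7 MuSCs (green) and Myoblasts/Progenitors (purple) with 95% Poisson intervals. Right, the share of cells with a count after thinning to 2000 counts, in percent, with 95% Clopper-Pearson intervals. Notch3 and Heyl show the widest gaps in both panels, while Dll1 overlaps.

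Whether endothelial cells with the ligand also carry the other members was asked in cells thinned to 2000 counts. Notch1 had a count in 63.4% (54.5 to 71.6) of the 131 day 2 cells with a Dll4 count and in 52.7% (45.6 to 59.8) of the 201 without. At day 7 the shares were 46.6% of 73 cells and 38.4% of 250. For Nrarp they were 35.1% and 28.9% at day 2, and for Hey1 5.34% and 2.99%. Hes1 was in 26.7% and 21.4% at day 2 and, in the other order, in 16.4% and 24.8% at day 7. For all 5 genes at both days the 2 intervals overlapped, which does not test the difference, and no direct test over cells was made. The shares depended on the thinning. Without it Nrarp at day 2 was in 66.2% (59.8 to 72.2) and 49.5% (39.3 to 59.7). At 1000 counts Hey1 at day 7 was in 17.0% (8.07 to 29.8) and 4.64% (2.49 to 7.81), and Hes1 at day 2 turned, to 10.8% and 13.0%. Dll4 itself was in 39.5% (34.2 to 44.9) of endothelial cells at day 2 and 22.6% (18.2 to 27.6) at day 7. Counts of Notch3 and Dll4 met in 9 of 194 thinned barcodes with both marker sets at day 2, 4.64% (2.14 to 8.62), and in 1 of 332 cells of the endothelial labels. Taken singly, Notch3 was in 52 and Dll4 in 50 of the 194 barcodes, and in 6 and 131 of the 332 cells. Whether they met more or less often than these shares give was not tested.

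The rest of the pathway was taken as 43 genes, among them the receptor Notch4, the Fringe enzymes that modify receptors, the cleavage machinery, ligand endocytosis, inhibitors and the nuclear complex. In Capillary 3 of the 30 with enough counts were past the mark upward and 0 downward, in Stem 4 and 2 of 27, in the pooled endothelial labels 4 and 0 of 34, and in Smooth Muscle 2 and 0 of 36, near or below the background shares given above. Lfng, a Fringe enzyme that tunes which ligand a receptor answers to, was past it in Capillary (9.71 and 21.4 CPM, lost with median-of-ratios scaling), in the pooled labels (11.96 and 31.6 CPM, log2 ratio 1.401, 0.72 to 2.11) and in Smooth Muscle (6.85 and 20.7 CPM, 1.59, 0.96 to 2.25).

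Adam10, the protease of the first receptor cut, was at 57.3 and 136 CPM in the pooled labels (log2 ratio 1.25, 0.93 to 1.56) and at 53.3 and 166 CPM in Stem (1.64, 1.08 to 2.21). In Stem the protease Adam17 (1.05) and Pofut1 (2.26) and Neurl1b (1.35), which act on receptor fucose and on ligand uptake, were also past the mark upward, while Furin, which processes the receptor precursor, was lower, at 171 and 75.3 CPM (-1.19), as was Spen, a co-repressor of RBPJ, at 143 and 64.5 CPM (-1.15). Median-of-ratios scaling, with a log2 shift of 0.083 in Stem, left Adam17 short of the mark. Egfl7, an endothelial secreted protein that antagonises Notch, was at 808 and 1621 CPM in Capillary (log2 ratio 1.005, 0.89 to 1.12), also short of the mark with that scaling. Hes6 was past the mark in Capillary (1.48) and in the pooled labels (1.14), Mib2, a ligand ubiquitin ligase, in the pooled labels (1.41) and Dtx4 in Smooth Muscle (2.91, from 6 and 24 counts). Notch4, the endothelial receptor, and Rbpj stayed within their intervals, at 149.7 and 129 CPM and at 46.6 and 40.5 CPM in the pooled labels.

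In MuSCs against Myoblasts/Progenitors 10 of the 31 pathway genes with enough counts were past the mark upward and 1 downward, against 16.2% and 8.58% of all genes. Relative to the shift of all genes these counts were 2 (Poglut1 and Egfl7) and 1 (Neurl1a), against 4.04% and 15.5% of all genes. Among the 10 were Adam10 (log2 ratio 1.51), Psen2 (1.33) and Ncstn (1.02) of the gamma-secretase complex, Poglut1 (1.72), Mib2 (1.29), the inhibitor Numb (1.02), Dtx3 (1.21), Dtx4 (1.14) and Egfl7 (3.11), and downward was Neurl1a (-3.12, 3 against 86 counts). The 5 endothelial markers also differed, at 413 CPM in MuSCs and 44.8 CPM in Myoblasts/Progenitors, and their part in the Egfl7 ratio was not tested. The median log2 ratio of the 31 genes was 0.79, beside 0.42 for all genes and a shift of 0.52.

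The genes most alike in pattern were sought over 29 combinations of label and day with at least 50 cells, by Pearson's r of log2(CPM + 10). The points share libraries and cell depth, and r is given as a description. Dll4 was most like Nos3, the endothelial nitric oxide synthase (r = 0.99), Notch4 (0.99) and Gpr4 (0.98). Notch1 was most like Nes (0.92), Flt1 (0.91) and Mcam (0.91), Nrarp like 4833403J16Rik, Ctla2a and Gimap8 (0.96 each), Hey1 like Sema6a (0.96), Ptpn14 (0.94) and Sdpr (0.94), and Dll1 like Bcam (0.97), Bend7 and Lama5 (0.96 each). Notch3 was most like Lin7a (0.96), Itga7 (0.92) and Heyl (0.92), and Heyl like Itga7 (0.95), Ccdc141 and Map2 (0.93 each). Notch2 was most like Zeb2 (0.90), Celf2 (0.89) and Adam30 (0.88), a gene that starts 10.3 kb past the end of Notch2 on the same strand. Hes1 (Nuak1, 0.88, Rab13, 0.87, Maml2, 0.86) and Jag1 (Homer3, 0.86, 2510009E07Rik, 0.85, Pgrmc2, 0.84) had the weakest likenesses. Among the members the correlation was highest for Notch3 and Heyl (0.92) and lowest for Notch2 and Nrarp (-0.78).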

How the data were processed

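Per the file headers and labels, the files deposited by the authors hold UMI counts (whole numbers) for each gene and barcode, made with Cell Ranger on mm10 (release 3.0.1 in the matrix header, 3.1.0 in the submitters' processing notes, which also name Seurat 3.1.5), and estimated counts after the authors' SoupX correction for ambient RNA, which can be fractions. The authors also deposited a cell annotation, made after doublet removal on a large integrated collection. No further doublet caller was run.

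Cells were kept when annotated and, in the SoupX values, with at least 750 genes, 1000 transcripts and at most 30% mitochondrial transcripts. Uncorrected counts were summed per label and day and divided by the label's total. Intervals at 95% were exact Poisson for sums, conditional binomial for ratios and Clopper-Pearson for shares. UMI counts limit amplification error, and the intervals cover counting error only. The mark was 2-fold, with 20 counts, in labels of at least 50 cells at both days. It was tried on simulated Capillary counts with counting error alone, which cannot show how it behaves under spread between cells or mice. Thinning drew 2000 counts per cell without replacement. Shallower cells were left out, for the endothelial labels 4 at day 2 and 10 at day 7, for day 7 MuSCs 5. A count of 0 was set to a floor of 3 counts. Named genes were the 10 members, pathway genes past the mark, and the 3 genes most alike to each member among those with at least 100 counts. The members and lists were chosen with earlier results of these data known. Alternatives were SoupX values, other cell limits, median-of-ratios scaling, per-cell means, other folds and filters, and leaving out barcodes with both marker sets. Python 3.11.15, numpy 2.4.6, scipy 1.17.1 and pandas 2.3.3 were used.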

Additional observations from a re-analysis of the deposited data

Results flagged for a closer look

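Called barcodes that met the cell limits but have no place in the annotation also carried the members. At day 2, 680 such barcodes held 1749 counts of the 10 genes, or 305.8 CPM (292 to 320.5), beside 354 CPM in the kept cells and 180.1 CPM in ambient RNA. At day 7, 477 barcodes held 1618 counts, or 499.99 CPM (476 to 525), beside 407 CPM in the kept cells and 293 CPM in ambient RNA. These values were picked out because they lie outside the comparisons and above the ambient level. At least 3 endothelial marker counts were found in 213 and 199 of them and at least 3 mural marker counts in 93 and 107. Notch3 was at 15.4 CPM at day 2 and 65.5 CPM at day 7, and Heyl at 1.57 and 30.6 CPM.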

How the results depend on the processing

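No paired analysis was possible because each day had 1 library, so no replicate could be left out either. SoupX-corrected values, every annotated barcode, stricter cell limits and no filter on low counts left the counts of members past 2-fold within 1.5 times those reported. Of 229 day ratios of members under the alternatives, 204 kept their size and side of the mark, 14 moved, 6 fell short of it and 5 newly passed it, and none changed direction while past it. In Capillary, the mean over cells and the omission of barcodes with both marker sets each gave 1 member higher (Hey1, log2 ratios of 1.12 and 1.20) and 0 lower (Notch1, -0.98 and -0.99). A 1.5-fold mark gave 1 higher and 2 lower there, 2 lower in Stem, 2 lower in the pooled endothelial labels, and 4 higher and 1 lower in Smooth Muscle. At that mark the shares of all genes were 18.5% higher and 16.6% lower in Capillary, 16.5% lower in Stem, 16.5% lower in the pooled labels, and 22.8% and 14.2% in Smooth Muscle. Median-of-ratios scaling left 1 of the 3 other pathway genes in Capillary, and put Adam17 short of the mark in Stem. In Smooth Muscle, the mean over cells put Heyl short of 2-fold (0.95) and Jag1 past it (1.41), and keeping only mural-only barcodes gave 1 higher (Jag1, 1.07) and 1 lower (Notch1, -1.76), with Heyl at 0.41. Splits chosen after the data were seen gave 0 higher in endothelial-only barcodes and 1 in those with both marker sets, against 12.5% and 11.9% of all genes, and in mural-only barcodes the shares were 9.94% higher and 13.1% lower. Median-of-ratios scaling, also added later, left 1 of the 4 members higher in MuSCs. The summed ambient level at day 2 was 230.9 CPM in barcodes of 1 to 10 counts, against 180.1 CPM. Of the 20 gene levels in ambient RNA 7 moved in that way. Of 20 shares by Dll4 count, 19 moved without thinning and 14 at 1000 counts. The cause of these shifts was not tested. A second annotation column was not run, as the table used holds no other cell type column. Artery, Vein, day 2 MuSCs and mural-only barcodes are limited by their small number of cells.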

Other observations

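Outside vessel and myogenic cells, Hes1 was higher at day 7 in 5 of the 8 other labels with at least 50 cells at both days. It stood at 5.61 and 84.1 CPM in M1 macrophages (ratio 14.99, 10.7 to 21.6), 12.7 and 139 CPM in Cx3cr1_hi M2 macrophages (10.997, 5.99 to 22.4), 3.60 and 58.0 CPM in patrolling monocytes (16.1, 8.33 to 34.8), 6.02 and 45.0 CPM in Cx3cr1_lo M2 macrophages (7.47, 3.98 to 14.3), and 30.5 and 122 CPM in Pro-remodeling fibro-adipogenic progenitors (4.01, 3.27 to 4.96), the stromal cells of muscle. It was not higher in T cells, at 58.7 and 32.0 CPM (0.545, 0.306 to 1.02), or in inflammatory monocytes, at 9.13 and 8.98 CPM (0.984, 0.292 to 2.65), and dendritic cells had 1 and 2 counts. Ambient Hes1 was at 21.0 and 82.4 CPM, and its part in these values was not tested.

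In the Pro-remodeling label Heyl had 0 counts at day 2 and 164 at day 7 (27.8 CPM, ambient 17.9 CPM), and Notch3 was at 3.14 and 20.5 CPM (ambient 8.51 and 27.0 CPM). Hey1 there was at 1.14 and 7.30 CPM (ratio 6.40, 2.33 to 24.6), beside ambient levels of 2.62 and 7.85 CPM. Jag1 was lower at day 7 in patrolling monocytes, at 41.4 and 9.08 CPM (ratio 0.219, 0.113 to 0.390), and in M1 macrophages, at 18.5 and 6.88 CPM (0.373, 0.228 to 0.585). Notch2 was at 66.1 and 25.8 CPM in T cells and at 43.3 and 87.6 CPM in dendritic cells. NK cells held Nrarp at 185 CPM at day 7 (91 counts).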
